A study of Mus musculus with 22 samples.

Results

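The genes of glycolysis and of the pentose phosphate pathway were followed in B cell precursors that had or had not been made to express LIN28B, an RNA-binding protein of fetal blood cells. A set of 35 genes was read from the deposited tables by gene symbol, and all 35 were found in each of the 3 stage tables, which list 37669 genes for large Pro-B cells, 37851 for large Pre-B cells and 26095 for small Pre-B cells. The set holds glucose and lactate transporters, the enzymes from hexokinase to lactate dehydrogenase, the genes that let pyruvate into mitochondria or hold it back, the enzymes of the pentose phosphate pathway, and Bnip3, a mitochondrial receptor for mitophagy that hypoxia induces.

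Adult tet-LIN28B mice carried the tetO-LIN28B allele, a Flag-tagged human Lin28b cDNA at the Col1a locus, together with Rosa26 rtTA*m2, and the control mice were littermates with Rosa26 rtTA*m2 only. Both genotypes were fed chow with doxycycline at 200 mg/kg over 10 days, so the drug and the transactivator were common to all groups. The transactivator sits at Rosa26 and is not confined to B cells, so other cells of the same mouse could express the transgene as well. Bone marrow was depleted of CD3+, TER119+ and GR1+ cells and sorted by surface markers, among them CD93+ and IgM-, with cKIT+ taken as Pro-B and cKIT- as Pre-B and with forward scatter to separate large from small cells, and males and females were used interchangeably. Polyadenylated RNA of 22 libraries from 15 mice was measured, with 5 tet-LIN28B and 4 control libraries of large Pro-B cells, 4 tet-LIN28B and 3 control libraries of large Pre-B cells, and 3 tet-LIN28B and 3 control libraries of small Pre-B cells. The 7 mice of the large Pre-B libraries also gave large Pro-B libraries, while 6 further mice gave the small Pre-B libraries.

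Depth was 13899691 to 23261528 reads per library in large Pro-B cells, 19864000 to 30437872 in large Pre-B cells and 32004733 to 50991949 in small Pre-B cells. Values are normalized counts, the reads of a gene divided by a size factor of its library. Lin28b had 57.0 to 232 normalized counts in tet-LIN28B and 4.63 to 10.2 in control large Pro-B libraries. In large Pre-B libraries it had 41.9 to 175 in tet-LIN28B and 9.92 to 28.8 in control mice. In small Pre-B libraries it had 81.9 to 230.2 in tet-LIN28B and 0 in every control library. The transgene is a human cDNA, while reads were aligned to the mouse genome, so these counts need not give the level of the transgene. No library went against its label by this measure, although over all genes the difference passed the limma threshold in small Pre-B cells only. Markers of B cell precursors (13 of 13 listed genes) passed the filter on low values in all 3 stages. In small Pre-B cells limma called 4 of them, Cd79b higher and Il7r, Il2ra and Ebf1 lower in tet-LIN28B cells. Of all genes tested there, 7.34% were called higher and 7.03% lower. The tet-LIN28B replicate 4 and control replicate 4 libraries of large Pro-B cells stood apart from the other 7 along the first principal component, which took 31.3% of the variance, and results at that stage are given with and without them. Control replicate 3 of large Pre-B cells also lay apart, at 92.8 on the first component of that stage where the other 6 libraries ran from -82.1 to 45.2.

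Glycolysis splits glucose into pyruvate and yields ATP and reducing equivalents in the cytosol. Pyruvate is then either reduced to lactate by lactate dehydrogenase, which restores NAD+, or carried into mitochondria by a carrier made of the MPC1 and MPC2 proteins and oxidized by pyruvate dehydrogenase, which the PDK kinases switch off. The pentose phosphate pathway branches off at glucose 6-phosphate and supplies NADPH and the ribose of nucleotides. Dividing lymphocytes are known for high glycolytic flux, and small Pre-B cells are the resting stage that follows the divisions of the large precursors.

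In small Pre-B cells the tet-LIN28B libraries held more mRNA of 6 members and less of 1, at a Benjamini-Hochberg adjusted p under 0.05 from limma on log2(normalized count + 1). Ldha, Eno1, Gpi1, Pfkp, Aldoa and Tkt were higher by 1.20 to 1.46-fold. Mpc2, a subunit of the mitochondrial pyruvate carrier, was at 0.631 times its control level. Of the 35 members 33 were tested, all but Eno2 and Aldoc, so that 6 of 33 were called higher and 1 of 33 lower, while over all 14664 genes 7.34% were called higher and 7.03% lower. The split was 3 higher and 2 lower after a rescaling that gave all libraries equal totals. With that setting 829 of the 14664 genes were called higher and 1227 lower. In bulk samples such as these, fewer cells of a type and less RNA per cell cannot be told apart.

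**Figure D1:**
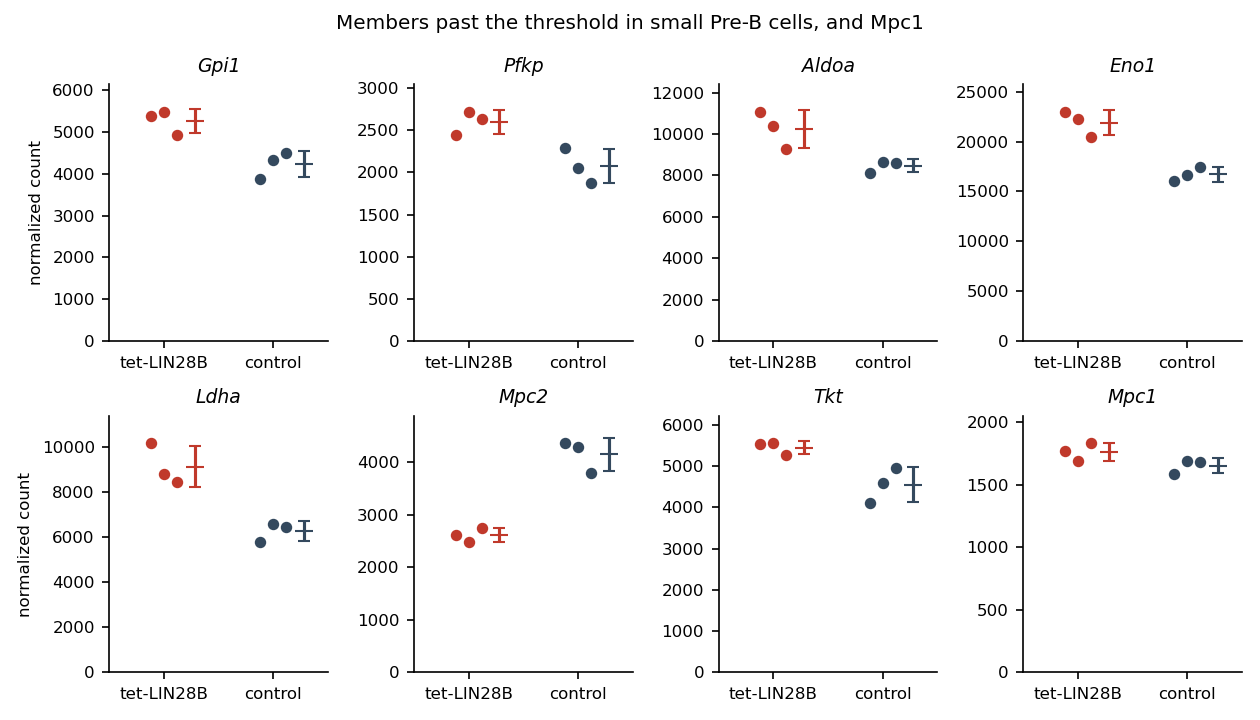
Normalized counts (y axis, from 0) of the 7 members past the threshold in small Pre-B cells and of Mpc1, by genotype (tet-LIN28B left, control right). Each point is 1 library, and the bar beside the points is the mean with its SD (n = 3 each). The tet-LIN28B points lie above all control points for Gpi1, Pfkp, Aldoa, Eno1, Ldha and Tkt and below them for Mpc2, while those of Mpc1 overlap.

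Ldha encodes the A subunit of lactate dehydrogenase, the form that prevails in glycolytic tissue, and lies at chr7:46841475-46855627 on the plus strand (GRCm38, GENCODE M21). It had 10135, 8784 and 8425 normalized counts in tet-LIN28B small Pre-B libraries, against 5762, 6588 and 6419 in control libraries. The lowest tet-LIN28B library was above the highest control library, and the difference was 0.54 ± 0.08 on the log2 scale (SE; limma adjusted p = 0.00272).

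The heart type subunit Ldhb was scarce in these cells. It had 10.6, 6.22 and 9.05 normalized counts in tet-LIN28B libraries, against 14.9, 20.5 and 12.2 in control libraries. These few counts did not overlap between genotypes but gave no call (log2 fold change -0.81 ± 0.50, SE; limma adjusted p = 0.319). Scaled by exonic length, the mean Ldha level was 728 times that of Ldhb in tet-LIN28B cells and 271 times in control cells. The log2 ratio of the Ldha to the Ldhb count (1 added to each) within a library was 9.91 ± 0.29 in tet-LIN28B and 8.56 ± 0.34 in control cells (SD, n = 3 each). These ratios depend on how reads were split with the near-identical copy Gm5514, which shares 27.0% of the 50-base stretches of Ldhb. Ldhb and this copy summed to a mean of 13.3 normalized counts in tet-LIN28B and 24.9 in control libraries, with up to 14.8 in a tet-LIN28B and up to 41.1 in a control library, and of these sums the copy held 35.3% in tet-LIN28B and 36.3% in control libraries.

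Eno1, the ubiquitous enolase that makes phosphoenolpyruvate (chr4:150236721-150248879, plus strand), had the highest level per length of the 7 called members in small Pre-B cells of either genotype. It had 22969, 22255 and 20479 normalized counts in tet-LIN28B libraries, against 16026, 16632 and 17489.7 in control libraries. All tet-LIN28B libraries were above all control libraries, by 0.39 ± 0.06 on the log2 scale (SE; limma adjusted p = 0.00406). Of the 50-base stretches of the Eno1 transcript, 72.2% also occur in transcripts of other genes, chiefly the copies Eno1b and Gm4735, so its reads could be split between them. Eno1 and the copies that share at least 5% of its stretches summed to 22552 ± 1309 normalized counts in tet-LIN28B and 17179 ± 742 in control libraries (SD, n = 3 each), and the copies held 2.89% of the sum in tet-LIN28B and 2.69% in control libraries. Eno2, the neuronal enolase, had 1.41, 0 and 0 normalized counts in tet-LIN28B libraries and 0 in all 3 control libraries.

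Gpi1 (glucose 6-phosphate isomerase), Pfkp (platelet type phosphofructokinase) and Aldoa (aldolase A) act one after another in the upper part of the pathway. Gpi1 (chr7:34201330-34230336, minus strand) had 5383, 5482 and 4934 normalized counts in tet-LIN28B libraries, against 3875, 4337 and 4493 in control libraries. Pfkp (chr13:6579768-6648777, minus strand) had 2439, 2718 and 2633 in tet-LIN28B libraries, against 2286, 2058 and 1880.5 in control libraries. Aldoa (chr7:126800790-126809108, minus strand) had 11064, 10368.5 and 9251 in tet-LIN28B libraries, against 8127, 8670.3 and 8617 in control libraries. For none of these genes did the genotypes overlap. The log2 differences were 0.32 ± 0.08 for Gpi1 (SE; limma adjusted p = 0.0227), 0.33 ± 0.09 for Pfkp (0.0356) and 0.27 ± 0.07 for Aldoa (0.0380). When 1 library was left out, Gpi1 passed only without tet-LIN28B replicate 3 or control replicate 3, Pfkp only without control replicate 1 and Aldoa only without tet-LIN28B replicate 3. In the other such fits the limma adjusted p reached 0.0908 for Gpi1, 0.135 for Pfkp and 0.134 for Aldoa. Exons of Gpi1 overlap those of Gm26762 and exons of Pfkp those of Pitrm1 on the opposite strand, and the library kit does not mark strand, so these reads cannot be told apart where they overlap.

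Tkt, transketolase, works in the part of the pentose phosphate pathway that returns sugars to glycolysis (chr14:30548359-30574720, plus strand). It had 5527, 5551 and 5275 normalized counts in tet-LIN28B libraries, against 4103, 4591 and 4967 in control libraries. Here too the genotypes did not overlap, with a log2 difference of 0.26 ± 0.08 (SE; limma adjusted p = 0.0488). This call was at the edge of the threshold and was lost in 10 of 14 alternatives, among them edgeR on recovered reads (0.0620) and every fit with 1 library left out other than control replicate 3, with up to 0.170 without control replicate 1.

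Mpc2 moved the other way (chr1:165460637-165481214, plus strand). It had 2606, 2484 and 2751 normalized counts in tet-LIN28B libraries, against 4349.7, 4288 and 3787 in control libraries. The highest tet-LIN28B library was below the lowest control library, and Mpc2 had the lowest adjusted p among the members (log2 fold change -0.66 ± 0.08, SE; limma adjusted p = 0.000704). Its partner in the carrier, Mpc1, had 1771, 1688 and 1828 in tet-LIN28B libraries, against 1583, 1689.9 and 1681 in control libraries. The Mpc1 libraries overlapped, with a 95% interval of -0.08 to 0.27 for the log2 difference. The log2 ratio of the Mpc2 to the Mpc1 count within a library was 0.57 ± 0.02 in tet-LIN28B and 1.32 ± 0.14 in control cells (SD, n = 3 each), a pair that was added after the values had been seen. No 50-base stretch of the Mpc2 transcript occurs in another gene, while 23.2% of those of Mpc1 do.

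Ldha, Eno1 and Mpc2 passed the threshold in all 14 alternatives run for small Pre-B cells, with log2 differences of 0.46 to 0.60 for Ldha, 0.35 to 0.44 for Eno1 and -0.73 to -0.63 for Mpc2.

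Several members had genotypes that did not overlap in small Pre-B cells without passing the threshold. In all, 14 members did not overlap and were higher and 4 were lower, of 33, while 17.7% of all 14664 genes did so in the higher and 16.2% in the lower direction. Hk2, the inducible hexokinase, had 118, 104 and 142 normalized counts in tet-LIN28B libraries, against 97.7, 80.0 and 74.2 in control libraries. Pfkm, the muscle type phosphofructokinase, had 71.8, 96.4 and 106 in tet-LIN28B libraries, against 142, 171 and 116 in control libraries. Both differences missed the threshold, with log2 fold changes of 0.52 ± 0.23 for Hk2 (SE; limma adjusted p = 0.165) and -0.64 ± 0.24 for Pfkm (0.108).

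Their more abundant relatives showed smaller differences. Hk1, the housekeeping hexokinase, had 1471, 1453 and 1126 normalized counts in tet-LIN28B libraries, against 1211, 1310.4 and 1395 in control libraries. Pfkl, the liver type phosphofructokinase, had 3404, 3427 and 3133 in tet-LIN28B libraries, against 2921, 3359 and 3276 in control libraries. Both genes overlapped between genotypes, with 95% intervals of -0.22 to 0.30 and -0.11 to 0.23 for the log2 difference. Aldoc, the brain type aldolase, was listed at 7.04, 0 and 9.05 in tet-LIN28B libraries and at 0, 0 and 3.76 in control libraries, too low to test.

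Bnip3 had 1968, 2325 and 1929 normalized counts in tet-LIN28B small Pre-B libraries, against 2657, 2399 and 2449 in control libraries. The ranges did not overlap, and the difference of -0.27 ± 0.09 on the log2 scale (SE) just missed the threshold (limma adjusted p = 0.0715). It passed when libraries were rescaled to the same total (0.0422), by DESeq2 on recovered reads (0.0398) and without tet-LIN28B replicate 2 (0.0251). Pdk1, a kinase that inhibits pyruvate dehydrogenase, had 809, 1108 and 834 in tet-LIN28B libraries, against 691, 649 and 728 in control libraries. The Pdk1 libraries did not overlap either (log2 fold change 0.40 ± 0.13, SE; limma adjusted p = 0.0718), and DESeq2 called the gene (0.0320).

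By role, 3 of 10 tested genes of the upper part of glycolysis were called higher in small Pre-B cells (Gpi1, Pfkp, Aldoa). So were 2 of 7 of the lower part (Eno1, Ldha) and 1 of 6 pentose phosphate genes (Tkt, at the edge of the threshold). Of 5 genes of pyruvate entry 1 was called lower (Mpc2). Over all genes 7.34% were called higher and 7.03% lower by limma. None of 4 transporters changed at that threshold by limma, edgeR or DESeq2. Among the transporters were Slc2a1 and Slc2a3, which take up glucose, and Slc16a1, which moves lactate and pyruvate. Their log2 differences were 0.12 for Slc2a1, 0.27 for Slc2a3 and -0.13 for Slc16a1, each with overlapping genotypes. All 6 pentose phosphate genes had a positive difference, from 0.04 for Pgd to 0.26 for Tkt. Over the 33 tested members the median log2 difference was 0.13, with 25 positive and 8 negative, beside a median of 0.00 over all 14664 genes, and 14 of the 33 members had an unadjusted p under 0.05, as did 4252 of the 14664 genes. Leaving out 1 library moved the members' median to between 0.07, without control replicate 1, and 0.17, without control replicate 2.

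**Figure D2:**
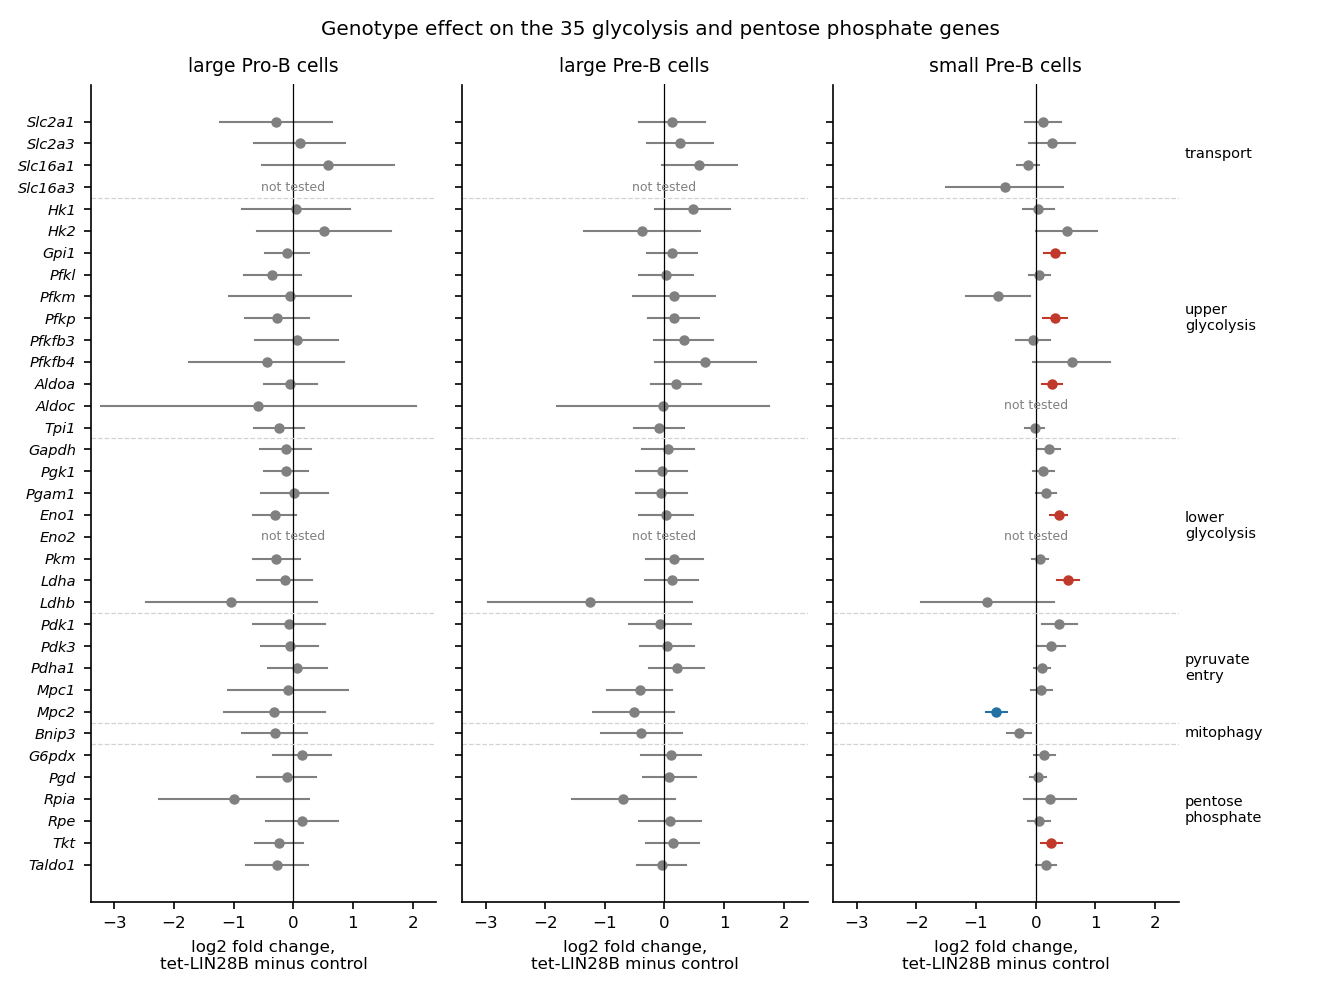
Log2 fold change of each of the 35 members (tet-LIN28B minus control, x axis) at the 3 stages, from large Pro-B on the left to small Pre-B on the right, with genes ordered by role from top to bottom. Points are limma estimates with 95% intervals, red for a gene called higher, blue for one called lower and grey for one not called. Intervals are narrowest in small Pre-B cells for genes such as Ldha and Pkm, and coloured points are found in small Pre-B cells only (6 red, 1 blue).

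Large Pre-B cells gave no call among the 33 tested members, by limma, edgeR or DESeq2, and 0 members had an unadjusted p under 0.05 in limma, where 930 of 14155 genes did. Over all genes 0.0424% were called higher and 0.0141% lower by limma. The lowest adjusted p of a member was 0.753, that of Slc16a1. This transporter had 13272, 11390 and 12996 normalized counts in tet-LIN28B replicates 1, 2 and 3 and 11972 in replicate 4, against 13249.6, 9288 and 4573 in control libraries. One control library lay within the tet-LIN28B range, and the log2 difference of 0.58 ± 0.29 (SE) had a 95% interval of -0.05 to 1.22. The sum of 9 myeloid genes ran at 7.08 to 9.72 CPM (normalized counts scaled to a library total of 1000000) in tet-LIN28B libraries. In control large Pre-B libraries it ran at 8.86 to 407 CPM. That of 3 NK genes ran at 0.131 to 2.22 CPM in tet-LIN28B and 2.82 to 4.35 CPM in control libraries. The part of these sums in the Slc16a1 difference was not tested. Across the alternatives the Slc16a1 difference ran from 0.16, without control replicate 3, to 0.93, without control replicate 1.

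No member had genotypes apart in large Pre-B cells, where 3.59% of genes did not overlap in the higher and 2.87% in the lower direction. Mpc2 had 173, 191, 395 and 215 normalized counts in tet-LIN28B libraries, against 254, 367 and 387 in control libraries. All 3 control libraries lay within the tet-LIN28B range, and the 95% interval of the log2 difference ran from -1.19 to 0.16. For Ldha the interval was -0.33 to 0.56 and for Eno1 -0.43 to 0.47, so these intervals held both 0 and the differences measured in small Pre-B cells. The median log2 difference over members was 0.08, beside -0.02 over all genes, and became -0.03 beside -0.12 with equal library totals, a setting that moved the all-gene median by more than 0.1 in this stage and not in the others. The members' median also rested on single libraries, at -3.4e-05 without control replicate 3, the library that lay apart, 0.02 without tet-LIN28B replicate 2 and 0.12 without tet-LIN28B replicate 4.

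In large Pro-B cells too, 0 of 33 tested members were called by limma, edgeR or DESeq2, with 0 at an unadjusted p under 0.05 in limma, and 0% of 13776 genes were called in either direction by limma. Over all genes, 394 had an unadjusted p under 0.05 in limma and DESeq2 called 3 higher and 1 lower. The median log2 difference of the members was -0.13, with 9 positive and 24 negative, beside 0.02 over all genes. It was -0.19 without both replicates 4, and leaving out 1 library gave -0.19, without tet-LIN28B replicate 5, to -0.07, without control replicate 2.

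Eno1 was the only member whose libraries did not overlap in large Pro-B cells, and it was lower in tet-LIN28B cells, in a stage where 0.697% of genes did not overlap in the higher and 0.602% in the lower direction. It had 32934, 33589.9, 27634.5, 30292 and 31638.5 normalized counts in tet-LIN28B libraries, against 34823, 41957, 43099 and 35399.7 in control libraries. The highest tet-LIN28B library was below the lowest control library, yet the log2 difference of -0.31 ± 0.16 (SE) missed the threshold (limma adjusted p = 0.999), as did that of -0.34 without the replicates 4 (0.718).

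The libraries that stood apart set the spread of several members at this stage. Slc16a1 had 9525, 8209, 8604, 1964 and 8565 normalized counts in tet-LIN28B replicates 1 to 5, against 9037, 5071, 3818 and 2022 in control libraries. Mpc1 had 429, 447, 533, 1757 and 504 in the same tet-LIN28B libraries, against 403, 479, 734 and 1303 in control libraries. In both genotypes replicate 4 was the lowest library for Slc16a1 and the highest for Mpc1. Without these libraries 0 members were called, and Hk2, Slc16a1 and Taldo1 (transaldolase) had an unadjusted p under 0.05, with log2 differences of 0.82, 0.64 and -0.50 (limma adjusted p of 0.694, 0.694 and 0.681).

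Whether the genotype effect differed between stages was tested directly, as a difference of the within-stage differences over 11830 genes. None of the 32 tested members passed the threshold in any of the 3 contrasts by limma. Over all genes, 0.0169% were called higher and 0% lower for small Pre-B minus large Pre-B, 0.0254% higher and 0.00845% lower for small Pre-B minus large Pro-B, and 0% in either direction for large Pre-B minus large Pro-B. For small Pre-B minus large Pro-B, Eno1 had the lowest p among the members, with a difference of log2 fold changes of 0.70 ± 0.19 (SE; limma adjusted p = 0.419). Ldha (0.69 ± 0.24), Tkt (0.50 ± 0.22) and Gpi1 (0.42 ± 0.20) also had an unadjusted p under 0.05 there. For large Pre-B minus large Pro-B, Pkm, Eno1 and Tkt did so, and for small Pre-B minus large Pre-B 0 members did. Over all 11830 genes, 567 had an unadjusted p under 0.05 for small Pre-B minus large Pro-B, 521 for large Pre-B minus large Pro-B and 286 for small Pre-B minus large Pre-B. The effects called in small Pre-B cells were thus not shown to differ from those in the large stages.

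The members took a far smaller share of the library in small Pre-B cells than in the large stages, in both genotypes. Their summed normalized counts made up 1.09 ± 0.10% of the total in tet-LIN28B and 1.22 ± 0.08% in control large Pro-B libraries (SD, n = 5 and 4), 0.936 ± 0.039% in tet-LIN28B and 0.938 ± 0.058% in control large Pre-B libraries (n = 4 and 3), and 0.396 ± 0.011% in tet-LIN28B and 0.364 ± 0.010% in control small Pre-B libraries (n = 3 each). In small Pre-B cells the 3 tet-LIN28B libraries, at 0.386 to 0.407%, were above the 3 control libraries, at 0.352 to 0.371%, and in the large stages the genotypes overlapped. Small Pre-B cells were from separate mice and were normalized in a table of their own, so stage and mouse cohort cannot be told apart and levels across stages are given without a test.

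**Figure D3:**
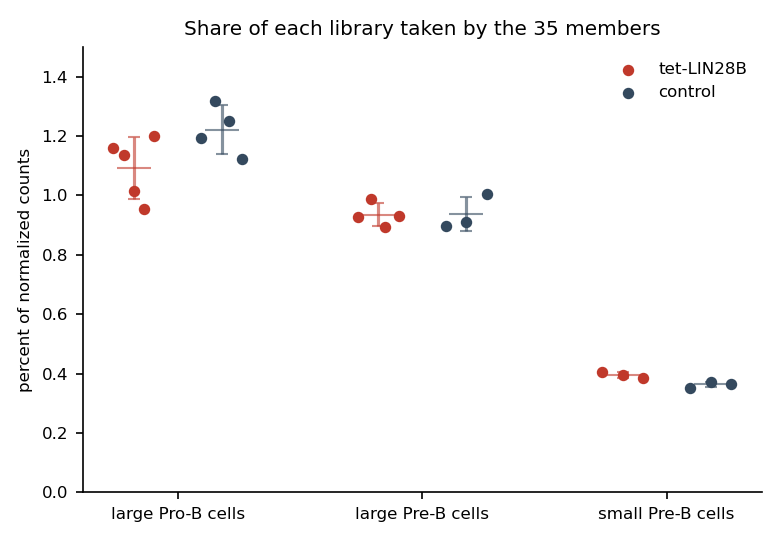
Percent of all normalized counts of a library that fall on the 35 members (y axis, from 0), by stage and genotype (tet-LIN28B left of control). Each point is 1 library, and bars give the mean and SD. Small Pre-B libraries lie between 0.352 and 0.407%, below all libraries of the large stages, which lie between 0.895 and 1.32%.

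Between large and small Pre-B cells, 17 of 34 members were lower in small Pre-B cells with no overlap of libraries in tet-LIN28B mice and 6 were higher, beside 24.3% of all genes lower and 40.9% higher. In control mice 23 of 34 were lower and 5 higher, beside 28.2% and 42.6% of all genes. The median log2 ratio of small to large Pre-B levels was -0.81 over the members in tet-LIN28B cells (0.30 over all genes) and -0.91 in control cells (0.27 over all genes). Against large Pro-B cells, 18 of 34 members were lower in tet-LIN28B small Pre-B cells, as were 3478 of 15825 genes, and 4 were higher, beside 32.4% of all genes. In control small Pre-B cells 20 were lower and 6 higher, beside 25.1% and 40.6% of all genes. Mpc2, Pgd, Rpe and Bnip3 were among those higher in both genotypes. From large Pro-B to large Pre-B cells, 5 of 33 members were lower and 1 higher in tet-LIN28B mice, beside 8.05% and 4.68% of all genes. In control mice 9 of 33 were lower and 1 higher, beside 8.18% and 11.6%.

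Ldha had the steepest step down between the Pre-B stages in tet-LIN28B cells, and in control cells it was second to Aldoc, which was at few counts. In tet-LIN28B cells Ldha ran at 1214 to 2682 CPM in large Pro-B, 1760 to 1851 in large Pre-B and 241 to 282 in small Pre-B libraries. In control cells it ran at 1865 to 2456 CPM in large Pro-B, 1650.1 to 2049 in large Pre-B and 166 to 190.4 in small Pre-B libraries. The mean in large Pre-B cells was 7.06 times that in small Pre-B cells in tet-LIN28B mice and 9.99 times in control mice. Gapdh, the dehydrogenase that yields NADH, was 6.18 and 7.27 times as high in large as in small Pre-B cells in tet-LIN28B and control mice, Tpi1 (triosephosphate isomerase) 4.41 and 4.90 times and Pgk1 (phosphoglycerate kinase) 3.83 and 4.55 times. The counts of Gapdh and Pgk1 carry the limit of near-identical copies, since 90.4% and 68.0% of their 50-base stretches occur in other genes.

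Other members kept their level or went the opposite way. Mpc2 ran at 10.3 to 23.1 CPM in large and 69.5 to 78.6 in small Pre-B libraries of tet-LIN28B mice, and at 14.7 to 28.4 and 109 to 125 in those of control mice. Its mean was thus 5.08 and 5.44 times as high in small as in large Pre-B cells, the largest step up among the members in both genotypes. Bnip3 was 2.75 and 2.45 times as high in small as in large Pre-B cells of tet-LIN28B and control mice, Rpe (ribulose phosphate epimerase) 2.26 times in both, and Pgd (phosphogluconate dehydrogenase) 1.73 and 1.66 times. Aldoa overlapped between the Pre-B stages in both genotypes, at 229 to 269 in large and 264.5 to 308 CPM in small Pre-B libraries of tet-LIN28B mice, and at 191 to 289 and 234 to 251 in control mice. The oxidative enzymes of the pentose phosphate pathway went apart, since G6pdx, the first of them, was 1.68 times as high in large as in small Pre-B cells of tet-LIN28B mice and 1.82 times in control mice.

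**Figure D4:**
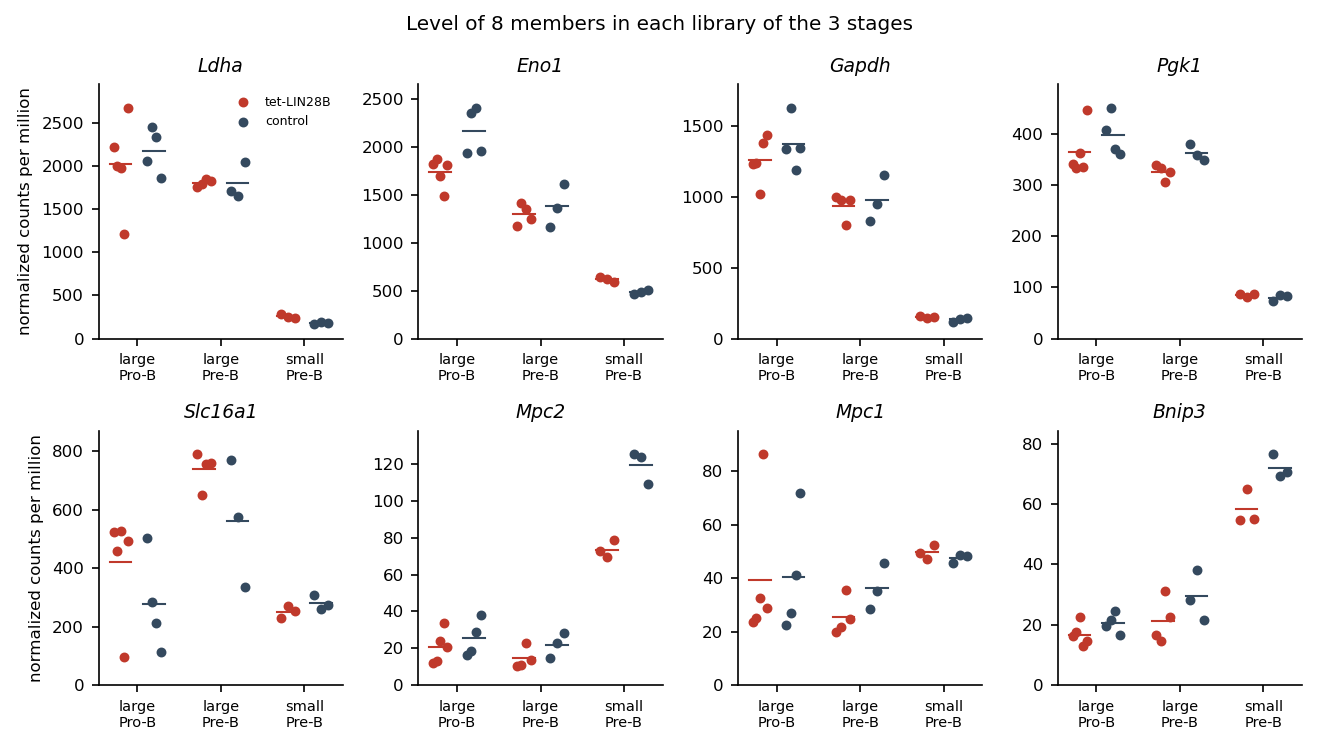
CPM (normalized counts scaled to a library total of 1000000, y axis, from 0) for 8 members at the 3 stages (x axis), with tet-LIN28B in red to the left of control in blue. Points are libraries and short lines are means. Ldha, Eno1, Gapdh and Pgk1 are lowest in small Pre-B cells, whereas Mpc2 and Bnip3 are highest there, with Mpc2 at 69.5 to 78.6 in tet-LIN28B and 109 to 125 in control libraries.

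Per kilobase of exon, the order of the members changed between stages. Ldha led in large Pro-B cells, at a mean of 1067 CPM per kilobase in tet-LIN28B and 1151 in control cells, and in large Pre-B cells, at 955 in tet-LIN28B and 952 in control cells. Gapdh, Eno1 and Pkm followed it in both stages and both genotypes. In small Pre-B cells Taldo1 led at 252 in tet-LIN28B and 229 in control cells, with Eno1 next at 242 in tet-LIN28B and 189 in control cells. The fourth place went to Ldha in tet-LIN28B cells, at 135, and to Mpc2 in control cells, at 117. These are levels, not differences, and Eno1 and Taldo1 lay close together in tet-LIN28B small Pre-B cells.

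Because LIN28B blocks the maturation of the let-7 microRNAs, the members' 3′ UTRs were searched for a match to the let-7 seed. The mature sequences (RefSeq, GRCm38.p6) of 9 let-7 and miR-98 forms have the same seed, bases 2 to 8, shown in capitals for 3 of them, and the match CTACCTC is in capitals in the stretches of the 2 members that hold it (GENCODE M21).
mmu-let-7a-5p: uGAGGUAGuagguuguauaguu
mmu-let-7g-5p: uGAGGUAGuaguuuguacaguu
mmu-miR-98-5p: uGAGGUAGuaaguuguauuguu
Aldoc: tgcacataccaaagtCTACCTCc
Slc2a3: tgaggttggaaggctCTACCTCa

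A match stood in 2 of 35 members, beside 8.96% of 20981 genes with a 3′ UTR. Neither gene was called in any stage, and none of the 7 called members held the letters. Slc2a3, the high-affinity glucose transporter GLUT3, had log2 differences of 0.10 in large Pro-B, 0.26 in large Pre-B and 0.27 in small Pre-B cells, each with overlapping genotypes. In large Pro-B cells the difference was 0.48 without the replicates 4 (limma adjusted p = 0.726).

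The promoters were searched for CACGTG, the E-box read by MYC and related factors, in 250 bases before to 50 after each start (RefSeq, GRCm38.p6). The letters read the same on both strands. Promoters were found for 34 of 35 members (49 promoters), and 5 held the motif, beside 7.15% of 32851 promoters of all genes. Among the 7 genes called in small Pre-B cells Ldha alone held it, with 2 matches at positions -145 and -48 from the start, shown with the single match of the lactate transporter Slc16a1 and of Bnip3, in capitals.
Ldha (chr7:46845639-46845684, plus strand): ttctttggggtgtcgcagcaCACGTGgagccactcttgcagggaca
Ldha (chr7:46845736-46845781, plus strand): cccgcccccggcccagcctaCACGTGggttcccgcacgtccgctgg
Slc16a1 (chr3:104638444-104638489, plus strand): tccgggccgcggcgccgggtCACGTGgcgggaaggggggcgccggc
Bnip3 (chr7:138909589-138909634, minus strand): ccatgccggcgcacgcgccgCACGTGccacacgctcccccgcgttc

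The other matches were in Pfkfb3 and Pfkm. Of these 5 genes only Ldha was called in small Pre-B cells by limma. The log2 difference was 0.54 for Ldha, -0.13 for Slc16a1, -0.27 for Bnip3, -0.05 for Pfkfb3 and -0.64 for Pfkm. Whether the motif had a part in these values was not tested. The shorter ACGTG, which is the core of hypoxia response elements and lies within every E-box match, stood on either strand in 20 of the 49 promoters (17 members), beside 19.6% of all promoters.

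The other genes of these pathways were counted from lists of the same origin. Of 29 tested further genes of glycolysis and pyruvate entry, 3 were called higher and 1 lower in small Pre-B cells by limma. Over all 14664 genes 7.34% were called higher and 7.03% lower. Bsg, the chaperone that brings SLC16A1 to the membrane, averaged 6066 ± 193 normalized counts in tet-LIN28B and 4854 ± 226 in control libraries (SD, n = 3 each), a log2 difference of 0.32. Slc2a6 (1.52) and Slc16a6 (1.72), transporter genes of the glucose and monocarboxylate families, were higher as well, and Pdk2 was lower (-0.45). Of 9 further pentose phosphate genes 1 was higher and 1 lower. Prps2, which turns ribose 5-phosphate into the PRPP used for nucleotides, averaged 6647 ± 130.4 in tet-LIN28B and 3602 ± 249 in control libraries, a log2 difference of 0.89 ± 0.07 (SE; limma adjusted p = 7.7e-05), and H6pd, the endoplasmic reticulum form of the first enzyme, was lower (-0.43).

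Txnip, an inhibitor of glucose uptake, was the 1 of 4 tested glucose brakes to be called and averaged 11612 ± 2366 normalized counts in tet-LIN28B and 16836 ± 3040.4 in control libraries (log2 difference -0.54, limma adjusted p = 0.0452). Of 25 tricarboxylic acid cycle and shuttle genes 6 were higher, with Got1 at 0.60 and Mdh1 at 0.24 on the log2 scale, and 2 were lower, Suclg2 (-0.65) and Idh1 (-0.35). Of 18 other hypoxia-inducible genes 4 were higher, among them Vegfa (1.60) and P4ha1 (0.65), and 3 were lower, with Ndrg1 at -1.48. Beside these counts, 7.34% of all 14664 genes were called higher and 7.03% lower by limma. The part of hypoxia in these values was not tested. In the large stages 0 genes of these lists were called by limma.

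Regulators and markers that moved in small Pre-B cells are given beside these results, and their part in them was not tested. Of 20 tested regulators, limma called 3 higher, beside 7.34% of all genes, namely Myc, Slc7a5 and Lin28b. It called 6 lower, beside 7.03%, namely Il7r, Mlxipl, Ikzf1, Nr3c1, Rptor and Bach2. Myc averaged 408 ± 82.1 normalized counts in tet-LIN28B and 51.1 ± 22.2 in control small Pre-B libraries, a log2 difference of 3.03 ± 0.29 (SE; limma adjusted p = 2.3e-04), while Il7r was lower (-0.72). In the large stages Myc overlapped between genotypes. Of 16 cell cycle genes 4 were called higher (Ccna2, Mki67, Ccnb1 and Ccnb2), beside 7.34% of all genes, and 11 had a positive difference. The summed level of all 16 was 544 to 706 CPM in tet-LIN28B and 504 to 627 CPM in control small Pre-B libraries. In large Pre-B libraries it was 15027 to 16832 CPM in tet-LIN28B and 12200 to 17498 CPM in control mice. The cell cycle sums of the genotypes overlapped in small Pre-B cells and lay far below those of large Pre-B cells.

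Markers of other cells were at these levels in small Pre-B libraries. Their calls stand beside 7.34% of all genes called higher and 7.03% called lower by limma. Of 4 mature B genes 3 were higher (Fcer2a, Ms4a1 and Cr2), while Ighd was not called and its log2 difference was not positive. The 4 genes summed to 531 to 737 CPM in tet-LIN28B and 302 to 315 CPM in control libraries. Of 3 plasma cell genes Sdc1 and Prdm1 were lower, with a sum of 57.4 to 66.2 CPM in tet-LIN28B and 173 to 213 CPM in control libraries. Of 3 plasmacytoid genes Bst2 and Irf8 were higher, while Siglech did not pass the filter on low values. The 3 genes summed to 649.5 to 718 CPM in tet-LIN28B and 529 to 574 CPM in control libraries. Whether these transcripts came from plasmacytoid cells was not tested. None of these sums overlapped between the genotypes. The 7 erythroid genes, of which Hbb-bs and Hba-a2 were called higher, summed to 4.10 to 4.93 CPM in tet-LIN28B and 1.43 to 2.90 CPM in control libraries. The 9 myeloid genes summed to 13.1 to 15.9 CPM in tet-LIN28B and 9.61 to 60.6 CPM in control libraries, with none of 4 tested genes called by limma. The 6 T cell genes summed to 0.255 to 0.414 CPM in tet-LIN28B and 0.108 to 0.403 CPM in control libraries, with Cd3e at 0 in every library. The sums of 3 NK and 2 megakaryocyte genes were at most 1.25 CPM in any small Pre-B library.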

How the data were processed

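Per the labels, reads were processed by the authors with STAR 2.7.1, RSEM 1.28 and DESeq2 against mm10. The deposited signal values are counts per gene divided by size factors of a library (normalized counts), in a table per stage. Values were whole multiples of 1 read for at least 99.99% of values (tolerance 0.1 read), so whole reads were recovered for edgeR and DESeq2 alternatives. Every column of values in the 3 stage tables belonged to a library, and no fold change or p-value from the authors' own tests was used.

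Genes that reached 10 normalized counts in as many libraries as the smaller group has were fitted with limma 3.58.1 (R 4.3.3, eBayes with trend) on log2(normalized count + 1), per stage, with Benjamini-Hochberg adjustment over all tested genes. A fold change on that scale understates changes of low genes. Stage differences were contrasts in 1 model of 6 groups, in which libraries of a mouse were correlated (0.278). Alternatives used edgeR 4.0.16 and DESeq2 1.42.0. Scripts were tested on simulated data. Alternatives also changed the pseudocount, the filter, the library totals and the libraries entered. CPM here are normalized counts scaled to a library total of 1000000.

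Fully described were members called over all genes, those with an absolute log2 fold change of at least 0.5 and no overlap, and their isoenzyme partners. Members and lists were chosen with earlier results of these data known. Sequences came from RefSeq GRCm38.p6 and GENCODE M21. The labels call replicates biological, and the IDs in library names were taken as mice.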

Additional observations from a re-analysis of the deposited data

Results flagged for a closer look

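In groups of 4 or 5 libraries, 12 of 102 tested sets of values had 1 library far from the others by Dixon's ratio, where chance gives about 1 in 20. In large Pro-B cells 6 of these concerned tet-LIN28B replicate 4. Its normalized count was 242 for Slc2a3 (others 633 to 717), 1964 for Slc16a1 (8209 to 9525), 2939.98 for Pdk3 (1656 to 1980.5), 1757 for Mpc1 (429 to 533), 4493 for Pdha1 (2213 to 2741) and 11882.5 for Taldo1 (5244 to 6158). This library stood apart over all genes as well, together with control replicate 4.

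The other 6 were scattered over libraries. Rpia was at 181 in tet-LIN28B replicate 5 of large Pro-B cells (others 51.2 to 88.2) and at 131 in tet-LIN28B replicate 4 of large Pre-B cells (53.0 to 63.0). Among control large Pro-B libraries Pkm was at 26979.7 in replicate 1 (32331 to 33383) and Tkt at 12032 in replicate 4 (14399.8 to 14809.6). In tet-LIN28B large Pre-B cells Pgam1 was at 3565 in replicate 3 (2648 to 2778) and Pfkfb3 at 1594 in replicate 2 (998 to 1092).

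Eno1 was above all control libraries in tet-LIN28B small Pre-B cells and below all of them in large Pro-B cells. The difference of the log2 fold changes was 0.70, with an adjusted p of 0.419 by limma.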

How the results depend on the processing

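In small Pre-B cells the members called were 6 higher and 1 lower. Rescaling libraries to the same total gave 3 higher and 2 lower, the replicate block 3 higher and 1 lower, and DESeq2 7 higher and 2 lower, while leaving out 1 library gave 2 to 4 higher and 1 to 2 lower (2 lower without tet-LIN28B replicate 2, which adds Bnip3). The replicate block is a fit in which libraries with the same number share a term. Numbers did not pair the libraries, since correlations of same-numbered libraries were -0.19 to 0.43 over the stages and not above 0.1 in every pair of any stage. The calls kept under the block were Gpi1, Eno1, Ldha and Mpc2. In the large stages and in the 3 contrasts between stages no alternative gave a call among the members, and none of the 7 called members changed sign in small Pre-B cells. All genes called in small Pre-B cells (1076 higher, 1031 lower) fell to as few as 497 higher and 519 lower without control replicate 1, and in large Pre-B cells (6 higher, 2 lower) DESeq2 gave 61 higher and 15 lower. In small Pre-B cells Eno2, Aldoc and Ldhb were limited by counts of a few reads. Which sequencer read which library is not stated in the sources, so its part was not tested. The alternative without both replicates 4 of large Pro-B cells was chosen after seeing the data.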
